A study of Sus scrofa with 18 samples.

Results

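The 3 libraries of 8-cell FLI embryos were compared with the 3 libraries of 2-cell FLI embryos, which makes 6 of the 18 libraries of the series. All libraries labelled FLI at these stages were used, and the change was tested in 13187 of the 20983 genes of the table. The series holds porcine embryos with 2, 4 or 8 cells from oocytes matured in FLI or in DMEM medium. It asked how the maturation medium bears on the activity of the embryonic genome. Each library was made from 1 pool of 20 embryos. FLI is a maturation medium based on TCM 199 with FGF2, LIF, IGF1, EGF, gonadotropins and bovine serum albumin, whereas DMEM was supplemented with gonadotropins, EGF, IGF1 and FGF but no LIF. After maturation all oocytes were activated with ionomycin and 6-DMAP and the embryos were cultured in PZM-3, so that both stages are parthenogenetic and carry no paternal genome. Whether pools of the same group go back to separate ovary collections is not stated, so p-values measure only the spread among these pools, which may be technical.

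A fully grown oocyte stores messenger RNA and proteins, and the first cleavages run on these maternal stores. During the maternal to embryonic transition the stored messengers lose their poly(A) tails and are degraded, while the embryonic genome starts its own transcription, which in the pig occurs around the 4-cell stage. Transcription of ribosomal RNA genes and the formation of nucleoli belong to the same period. The 2-cell and 8-cell stages lie on either side of this transition.

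The total count per library was 4028384, 5265886 and 2167674 in 8-cell embryos (pools 1, 2 and 3), against 3364351, 5683102 and 4720356 in 2-cell embryos. The labelled embryo was checked against its markers. Of 10 oocyte and early embryo markers, 9 were in the table and none was at 0 in all 6 libraries, and their summed level was 360 to 4412 CPM (counts per 1000000 counts, scaled by TMM) in 8-cell embryos and 6700 to 7255 CPM in 2-cell embryos. Of 12 cumulus and granulosa markers, 10 were in the table, with a summed level of 11.5 to 22.1 CPM in 8-cell and 1.68 to 5.44 CPM in 2-cell embryos, and LHCGR and TNFAIP6 had no count in any 2-cell library. The 14 blood and somatic markers summed to 27.2 to 50.5 CPM in 8-cell and 17.8 to 18.6 CPM in 2-cell embryos. Of these somatic sets, 2 of the cumulus and 8 of the blood and somatic markers passed the filter on low counts, and 1 and 3 of them were called higher. Among the tested members of longer lists of such markers, cumulus and granulosa genes took 0.0148%, 0.0174% and 0.0268% of counts in 8-cell and 0.0157%, 0.0173% and 0.0178% in 2-cell embryos, which overlapped, and blood and somatic genes took 0.0103%, 0.0195% and 0.0125% in 8-cell and 0.0297%, 0.0259% and 0.0212% in 2-cell embryos, the opposite direction to the shorter set. Most of the 2-cell counts of the longer blood and somatic list came from MYH11, the 1 tested member that fell. The part of cumulus, blood or other somatic cells in the results was not tested. Fewer cells of a type and less RNA per cell cannot be told apart in such pools.

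The 8-cell pools were less alike than the 2-cell pools. Mean correlation of log2(CPM + 1) with the 2-cell libraries was 0.712 for 8-cell pool 1, 0.832 for pool 2 and 0.596 for pool 3, whereas each 2-cell library correlated with the others at 0.983 to 0.986. In pool 3 only 21.4% of mapped reads lay in genes of the table, against 52.0% and 63.1% in the other two 8-cell pools and 68.7% to 72.6% in 2-cell pools. Pool 3 also had 18595 genes with a count and 0.0215% of its counts in genes assigned to the Y chromosome, against 0.00963% to 0.0115% in the other 5 libraries, although these embryos carry no Y chromosome. Results are therefore also given without pool 2 and without pool 3.

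By edgeR's quasi-likelihood test with Benjamini-Hochberg adjustment, 4568 genes (34.6%) rose and 3163 (24.0%) fell in 8-cell embryos at an adjusted p under 0.05, 58.6% in either direction. Leaving out 1 library, and so with 13368 to 14213 genes tested, gave 46.5% to 49.2% in either direction for all but 8-cell pool 2, without which it was 65.5%. With a log2 fold change beyond 1.5 in addition, 3521 genes (26.7%) were higher and 1386 (10.5%) were lower. Levels were relative to the scaled counts of each library, and the amount of RNA per embryo was not used. On this scale the increases were larger than the decreases. The median log2 fold change was 2.69 among genes that rose and -1.40 among those that fell, and it was 0.24 over all tested genes. A change above 4 on the log2 scale was found in 1280 genes that rose, and a change below -4 in 13 that fell. No count was found in any 2-cell library for 242 tested genes, of which 237 were called higher, and in any 8-cell library for 1 tested gene. Such genes passed the filter on low counts only through other groups, so that these numbers are no separate evidence of a change.

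**Figure D1:**
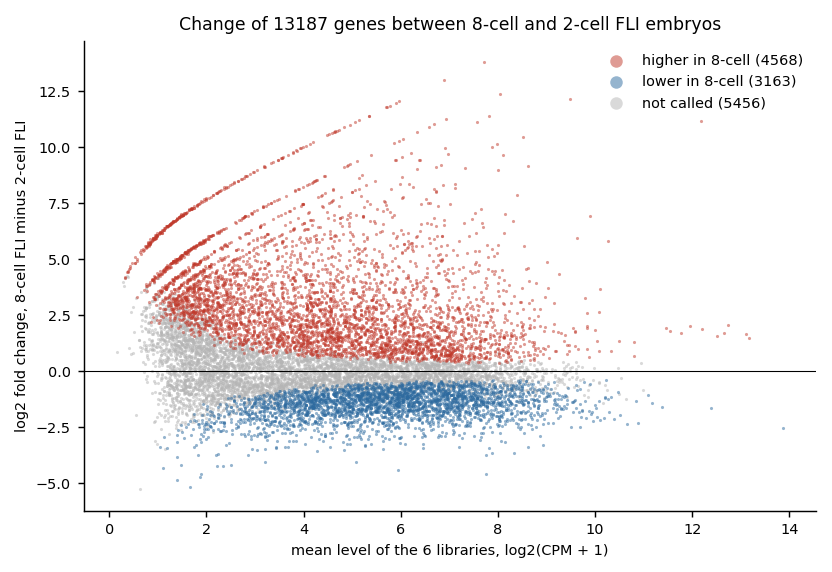
The log2 fold change of each of 13187 tested genes (vertical axis, 8-cell FLI minus 2-cell FLI) is plotted against its mean level in both stages (horizontal axis, log2(CPM + 1)). The 4568 genes called higher reach a log2 fold change of 13.81, most of the 3163 called lower lie between 0 and -4, and the curved rows of points at the upper left are genes with no or few counts in 2-cell embryos.

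The 8-cell pools did not overlap the 2-cell pools in 4333 genes that lay above them (32.9%) and in 3704 genes that lay below them (28.1%). Within the 8-cell group, pool 2 was most often the pool nearest to the 2-cell level. It was the nearest in 2963 of the 4568 genes that rose and in 2452 of the 3163 genes that fell. Relative to the 2-cell mean, the median difference of the genes that rose was 1.99, 1.37 and 2.25 on the log2(CPM + 1) scale in 8-cell pools 1, 2 and 3. For the genes that fell it was -1.54, -0.87 and -2.01 in pools 1, 2 and 3. Pool 2 was nearest to 0 in both sets, which were called from these libraries. The 4-cell FLI pools, set against the same 2-cell libraries, had medians of 2.01, 1.94 and 1.86 in the first set and -1.66, -1.55 and -1.46 in the second. Without 8-cell pool 2, 4906 genes rose and 4388 fell. Without 8-cell pool 3, 3901 rose and 2670 fell.

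**Figure D2:**
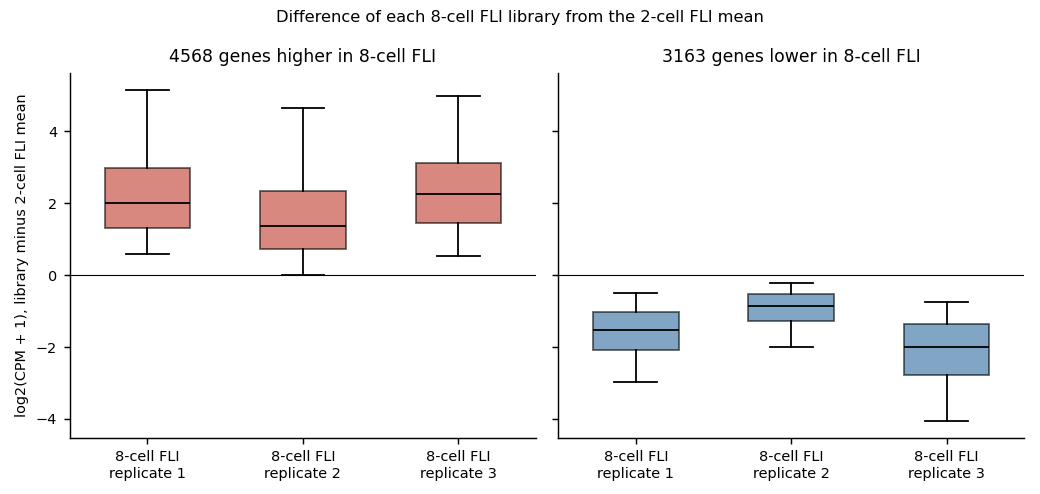
Each box gives the difference of 1 8-cell FLI library from the mean of the 2-cell FLI libraries on the log2(CPM + 1) scale, for genes called higher (left panel) and lower (right panel). The line is the median, the box spans the quartiles and the whiskers reach the percentiles 5 and 95. Replicate 2 has the median nearest to 0 in both panels, at 1.37 and -0.87.

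The largest changes were taken among called genes with a symbol that did not overlap between the stages and averaged at least 50 CPM where they were higher, 10 in each direction. The genes with the largest increases had almost no counts in 2-cell embryos. SULT1E1 (chromosome 8, 66811550-66834473, build Sscrofa11.1 as for all positions), an estrogen sulfotransferase, had 584, 89.0 and 572 CPM in 8-cell embryos and no count in 2-cell embryos. ESRRB (chromosome 7, 99514168-99699011), an orphan nuclear receptor of the pluripotency network, had 297, 163 and 247 CPM in 8-cell embryos and no count in 2-cell embryos. Against a floor of 3 counts over the 2-cell group (0.208 CPM), SULT1E1 was at least 1992-fold and ESRRB at least 1131-fold higher in 8-cell embryos. Their fitted log2 fold changes of 13.81 ± 1.1 and 12.99 ± 0.53 (± SE here and below) depend on the prior count and are no bounds. CRABP2, a carrier of retinoic acid, had 133, 94.7 and 126 CPM in 8-cell embryos, at least 566-fold higher than in 2-cell embryos. The folate receptor gene FOLR1 was at least 494-fold higher, the tight junction gene CLDN8 at least 515-fold and FAM151A at least 381-fold, with 16.5 CPM or more in each 8-cell pool. In all 6 of these genes pool 2 was the lowest of the 8-cell pools, and no 2-cell library had a count.

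RAB3IL1 (chromosome 2, 9577330-9599973), which encodes an exchange factor of Rab GTPases, had 559, 543 and 478 CPM in 8-cell embryos and 0, 0.168 and 0 CPM in 2-cell embryos. The ratio was 7682 with a 95% counting interval of 1378 to 303458. TKTL1, a transketolase-like gene, had 672, 112 and 570 CPM in 8-cell embryos and 0, 0 and 0.404 CPM in 2-cell embryos, a ratio of 2945 with an interval of 815 to 24326. Such intervals cover counting error only. SLC34A2, a sodium-dependent phosphate cotransporter, reached 1908, 588 and 1807 CPM in 8-cell embryos, against 0.859, 0.168 and 0 CPM in 2-cell embryos (log2 fold change 12.17 ± 0.71, adjusted p = 1.9e-10). ARG1, the arginase of the urea cycle, differed most between pools, with 203, 2.17 and 164 CPM in 8-cell embryos and no count in 2-cell embryos. It was at least 590-fold higher on average, with an adjusted p = 0.00018 that became 0.098 with limma voom.

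The largest decreases by the same rule left measurable transcripts at the 8-cell stage. RGS2 (chromosome 10, 936789-940098), a regulator of G protein signalling, had 19.9, 26.6 and 3.69 CPM in 8-cell embryos, against 415, 387 and 440 CPM in 2-cell embryos (log2 fold change -4.59 ± 0.59, adjusted p = 3.4e-06). ID3, an inhibitor of basic helix-loop-helix factors, had 3.93, 8.86 and 2.58 CPM in 8-cell and 124, 93.1 and 130 CPM in 2-cell embryos (-4.42 ± 0.48, adjusted p = 4.7e-07). UCHL1, a deubiquitinating enzyme abundant in oocytes, had 63.3, 121 and 19.2 CPM in 8-cell and 724, 770 and 665 CPM in 2-cell embryos (-3.39 ± 0.52, adjusted p = 3.0e-05). That the stages did not overlap in these genes follows from the rule that chose them. In all 3 of them pool 3 was the lowest and pool 2 the highest 8-cell pool. The other genes of largest decrease were DEGS2 (sphingolipid synthesis), ZFAND2A (a stress-induced zinc finger gene), ARHGAP22, MANBA (a lysosomal mannosidase), FAIM (an inhibitor of Fas-induced apoptosis), SLC31A2 (a copper transporter gene) and ZAR1. Their log2 fold changes lay between -4.04 and -3.44.

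**Figure D3:**
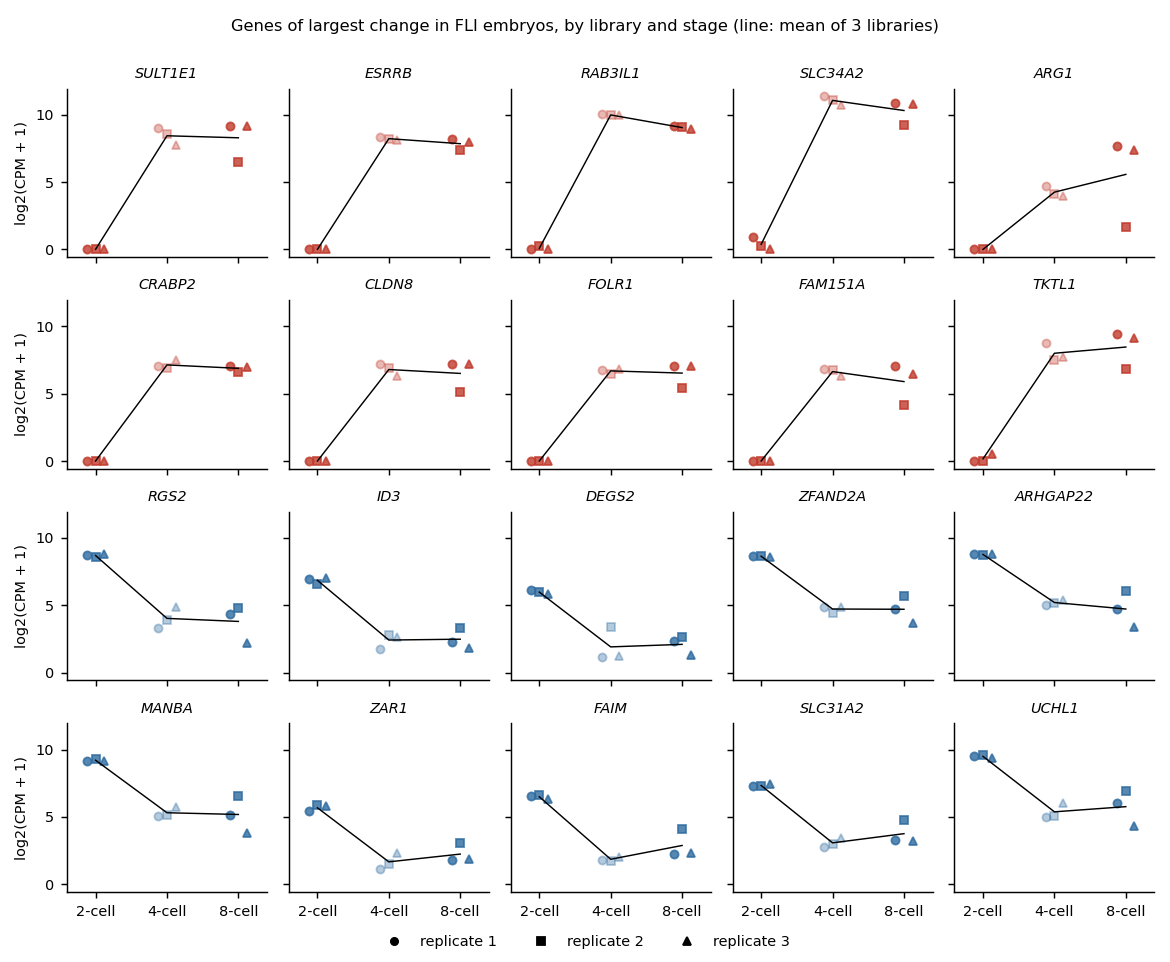
Levels (log2(CPM + 1)) of the 10 genes of largest increase (red) and the 10 of largest decrease (blue) in each FLI library, by stage. Each symbol is 1 library, the line joins the means, and the paler 4-cell libraries took no part in choosing the genes. The increases are visible at the 4-cell stage already, and 8-cell ARG1 is spread between 2.17 and 203 CPM.

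The 31 lists were chosen with earlier results of these data known. Among them, the oocyte and maternal effect genes had the largest share of tested members that fell, 80.6% beside 24.0% over all tested genes. Of 41 genes listed, 31 were tested, of which 25 fell and 1 rose, with a median log2 fold change of -2.09 beside 0.24 over all tested genes. Together these genes took 0.362%, 1.07% and 0.127% of counts in 8-cell embryos, against 2.05%, 2.00% and 2.03% in 2-cell embryos. ZAR1 and ZAR1L encode proteins that bind stored maternal messengers. ZAR1 had 2.46, 7.48 and 2.58 CPM in 8-cell and 41.2, 56.5 and 53.9 CPM in 2-cell embryos (-3.53 ± 0.51, adjusted p = 1.5e-05). ZAR1L had 42.0, 113 and 9.58 CPM in 8-cell and 475, 481 and 481 CPM in 2-cell embryos (-3.11 ± 0.56). OOEP, a member of the subcortical maternal complex, had 4.42, 3.55 and 0.369 CPM in 8-cell and 30.9, 23.9 and 28.7 CPM in 2-cell embryos (-3.23 ± 0.54). All 8-cell values of ZAR1L and OOEP were below all 2-cell values, which for ZAR1 the rule of largest change required. FIGLA, an oocyte transcription factor below the level minimum, had 0, 0 and 0.369 CPM in 8-cell and 3.44, 5.54 and 3.63 CPM in 2-cell embryos (-5.16 ± 1.30, adjusted p = 0.0033). Among further members, FIGLA included and all singled out after their values were seen, the oocyte growth factor gene GDF9 fell (-2.51 ± 0.47), whereas the zona pellucida genes ZP3 (-0.76) and ZP4 (-0.59) were not called. The gene that rose was DDX4, a germ cell RNA helicase, with 32.2, 21.7 and 49.8 CPM in 8-cell and 14.6, 10.4 and 10.3 CPM in 2-cell embryos.

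Maternal transcripts also led the 2-cell stage in abundance. By TPM, which is per length, the 5 most abundant genes with a symbol apart from mitochondrially encoded genes were DNMT1, BMP15, H1-8, SIN3A and PCNA at the 2-cell stage. DNMT1, the maintenance DNA methyltransferase, had 1715, 5029 and 437 TPM in 8-cell and 17930, 17626 and 15364 TPM in 2-cell embryos. In counts it fell by 2.56 on the log2 scale (SE 0.60, adjusted p = 0.0015), and the 8-cell pools differed among themselves, with 3501, 8798 and 758 CPM. BMP15, an oocyte growth factor, had 1039, 2785 and 149 CPM in 8-cell and 4105, 3953 and 3987 CPM in 2-cell embryos. Its log2 fold change was -1.60 ± 0.66 with an adjusted p = 0.044, which rose to between 0.074 and 0.12 when any 1 of 5 libraries was left out, all but 8-cell pool 2. H1-8, the oocyte linker histone (-2.08 ± 0.60, adjusted p = 0.0072), SIN3A, a corepressor scaffold (-1.66 ± 0.55, adjusted p = 0.015), and PCNA, the replication clamp (-1.35 ± 0.42, adjusted p = 0.011), fell too. SIN3A did not pass without 8-cell pool 1 (adjusted p = 0.066). With only the 6 libraries of the groups compared in the fit, BMP15 (adjusted p = 0.147), PCNA (0.0822), H1-8 (0.0535) and SIN3A (0.106) did not pass.

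At the 8-cell stage the most abundant named genes were RPLP1, HENMT1, TPT1, NCL and CALM2. RPLP1, a protein of the ribosomal stalk, had 4582, 3051 and 5024 TPM in 8-cell and 221, 171 and 236 TPM in 2-cell embryos. HENMT1, which methylates the ends of piRNAs, had 3122, 2866 and 2584 TPM in 8-cell and 766, 876 and 939 TPM in 2-cell embryos, and rose by 2.03 ± 0.18 on the log2 scale of counts. TPT1, a translationally controlled tumour protein gene, rose by 4.89 ± 0.28, and NCL, the nucleolar protein nucleolin, by 1.92 ± 0.20. CALM2, a calmodulin gene, was abundant at both stages. It had 2714, 2422 and 2518 TPM in 8-cell and 2387, 2952 and 2609 TPM in 2-cell embryos and was not called (0.24 ± 0.18, adjusted p = 0.27). A gene without a symbol, ENSSSCG00000034113 (chromosome 9, 25500051-25503695), which was singled out after its values were seen, exceeded all of these. It overlaps LOC100514912 of RefSeq by 2615 bases. It had 17214, 16476 and 17177 TPM in 8-cell embryos, against 18, 7.27 and 3.13 TPM in 2-cell embryos. Among the genes of the table this was the highest 8-cell level outside the mitochondrial genome.

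The machinery of protein synthesis rose together. Of 64 tested genes of cytosolic ribosomal proteins, 62 rose and 1 fell (96.9% and 1.56%, beside 34.6% and 24.0% over all tested genes). The median log2 fold change of these ribosomal protein genes was 4.49. Their share of counts was 2.57%, 0.993% and 2.48% in 8-cell embryos and 0.230%, 0.227% and 0.237% in 2-cell embryos. RPS9 had 235, 110 and 199 CPM in 8-cell and 2.29, 2.02 and 1.21 CPM in 2-cell embryos (6.62 ± 0.34, adjusted p = 5.3e-11). RPS19 and RPL35 rose by 6.56 ± 0.36 and 6.04 ± 0.32. The stages were far apart in all of these, and pool 2 was the lowest 8-cell pool. The gene that fell was RPS24 (-0.57 ± 0.20, adjusted p = 0.022), with 571, 307 and 386 CPM in 8-cell and 604, 629 and 642 CPM in 2-cell embryos, and RPS28 (0.70) was not called. Ribosomal protein genes have many processed copies in the genome, so that their counts can be shared with those copies.

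Of 35 tested translation initiation factors 27 rose and 2 fell (median 1.55). These are 77.1% and 5.71%, beside 34.6% and 24.0% over all tested genes. EIF3A, a scaffold subunit of initiation factor 3, had 1922, 1121 and 1651 CPM in 8-cell and 31.8, 27.2 and 18 CPM in 2-cell embryos (5.93 ± 0.29, adjusted p = 3.6e-11). EIF4G1, the scaffold of the cap-binding complex, had 1290, 1043 and 1167 CPM in 8-cell and 54.4, 58.6 and 57.3 CPM in 2-cell embryos (4.36 ± 0.20). PABPC1, the somatic poly(A)-binding protein, had 518, 237 and 459 CPM in 8-cell and 3.44, 4.37 and 4.44 CPM in 2-cell embryos (6.61 ± 0.35), and EIF1AX rose by 3.84 ± 0.24. None of these genes overlapped between the stages. The members that fell were EIF4G3 (-1.41) and EIF5B (-1.04).

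The nucleolus and RNA polymerase I, which makes ribosomal RNA, were covered by a list that rose in 37 of 46 tested members and fell in 1 (median 1.58). These are 80.4% and 2.17%, beside 34.6% and 24.0% over all tested genes, and 3 fell without 8-cell pool 2. FBL, the methyltransferase fibrillarin, had 154, 172 and 115 CPM in 8-cell and 5.44, 3.36 and 2.22 CPM in 2-cell embryos (5.35 ± 0.29, adjusted p = 9.5e-11). NOP2 (3.65 ± 0.25), DKC1 (2.90 ± 0.18) and NOP58 (2.78 ± 0.20), which act in the modification of ribosomal RNA, rose with it. Among members singled out after their values were seen, POLR1A, the largest subunit of the polymerase, had 194, 215 and 159 CPM in 8-cell and 53.6, 56.3 and 49.6 CPM in 2-cell embryos (1.83 ± 0.19). UBTF, the gene of the upstream binding factor UBF, had 174, 215 and 140 CPM in 8-cell and 144, 137 and 129 CPM in 2-cell embryos and was not called (0.37 ± 0.20, adjusted p = 0.12). TAF1A, a subunit of the promoter selectivity factor, fell by 1.84.

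Transcription and splicing factors changed in both directions, with more increases. For RNA polymerase II and general factors, 22 of 42 tested members rose and 5 fell (median 0.69). These are 52.4% and 11.9%, beside 34.6% and 24.0% over all tested genes. Of this list, 10 fell without 8-cell pool 2, 3 without 8-cell pool 1 and 2 without 8-cell pool 3, 2-cell pool 2 or 2-cell pool 3. POLR2B, the second largest subunit of the polymerase, had 446, 378 and 361 CPM in 8-cell and 0.859, 3.02 and 3.43 CPM in 2-cell embryos (7.26 ± 0.33, adjusted p = 1.3e-11). The annotated span of POLR2B overlaps NOA1 and IGFBP7 on the other strand. How strand was used in counting is not given in the sources used here, so that reads of overlapping genes on opposite strands may not have been told apart, here and in FAM151A, SLC31A2, TDG, MRPS14, SOD1, PGAM1 and BAD among others. SUPT4H1, a subunit of the elongation factor DSIF, had 85.7, 94.3 and 75.6 CPM in 8-cell and 0, 0.336 and 2.02 CPM in 2-cell embryos (6.64 ± 0.50). The polymerase subunit POLR2F and the TFIIH subunit GTF2H3 rose by 3.29 ± 0.27 and 3.90 ± 0.37. Of 48 splicing factors 33 rose and 4 fell (68.75% and 8.33%, median 1.28). SRSF6 had 230, 319 and 163 CPM in 8-cell and 8.31, 5.71 and 5.85 CPM in 2-cell embryos (5.18 ± 0.29), and the core protein gene SNRPB rose by 4.29 ± 0.25. In all of these the 3 8-cell values were above the 3 2-cell values.

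In the list of genes transcribed when the embryonic genome is activated, 21 of 28 tested members rose and 1 fell (median 2.17). These are 75% and 3.57%, beside 34.6% and 24.0% over all tested genes. Like the other lists, it was chosen with earlier results of these data known, so its rise is no independent evidence. KDM5B, a demethylase of histone H3 lysine 4, had 338, 374 and 336 CPM in 8-cell and 3.72, 1.34 and 4.64 CPM in 2-cell embryos (6.78 ± 0.32, adjusted p = 1.9e-11). MYCN, a MYC family transcription factor, had 195, 128 and 128 CPM in 8-cell and 0, 1.01 and 0.202 CPM in 2-cell embryos (8.22 ± 0.48). The 8-cell pools agreed within a narrow range in KDM5B, pool 2 included. KLF4, a Krüppel-like factor, had 545, 680 and 458 CPM in 8-cell and 48.4, 32.3 and 36.3 CPM in 2-cell embryos (3.85 ± 0.22), and its 4-cell values were 1011, 1187 and 1029 CPM. Of the list, YTHDF1 fell (-0.53 ± 0.16, adjusted p = 0.0099).

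Pluripotency and first lineage factors rose in 18 of 28 tested members and fell in 5 (median 3.17). These are 64.3% and 17.9%, beside 34.6% and 24.0% over all tested genes. TFAP2C, a trophectoderm and germline factor, had 244, 245 and 202 CPM in 8-cell and 17.2, 12.8 and 9.89 CPM in 2-cell embryos (4.12 ± 0.25, adjusted p = 2.5e-10). GATA6, a factor of primitive endoderm, had 294, 118 and 217 CPM in 8-cell and 0, 0.504 and 0.404 CPM in 2-cell embryos (9.14 ± 0.55). Both lineage factors were thus far above their 2-cell level in every 8-cell pool. Further members were singled out after their values were seen. NANOG, a core pluripotency factor, had 19.1, 56.1 and 25.4 CPM in 8-cell and 0, 0.84 and 0 CPM in 2-cell embryos (6.53 ± 0.67). KLF17 had 120, 264 and 92.9 CPM in 8-cell and 0, 0.168 and 0 CPM in 2-cell embryos (10.67 ± 0.67). In both, pool 2 was the highest 8-cell pool. The members that fell were KLF2 (-2.62), DPPA5 (-2.30), YAP1 (-1.54), GATA4 (-1.44) and LIN28A (-1.37). YAP1, an effector of Hippo signalling, had 96.0, 175 and 60.1 CPM in 8-cell and 337, 331 and 300 CPM in 2-cell embryos.

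**Figure D4:**
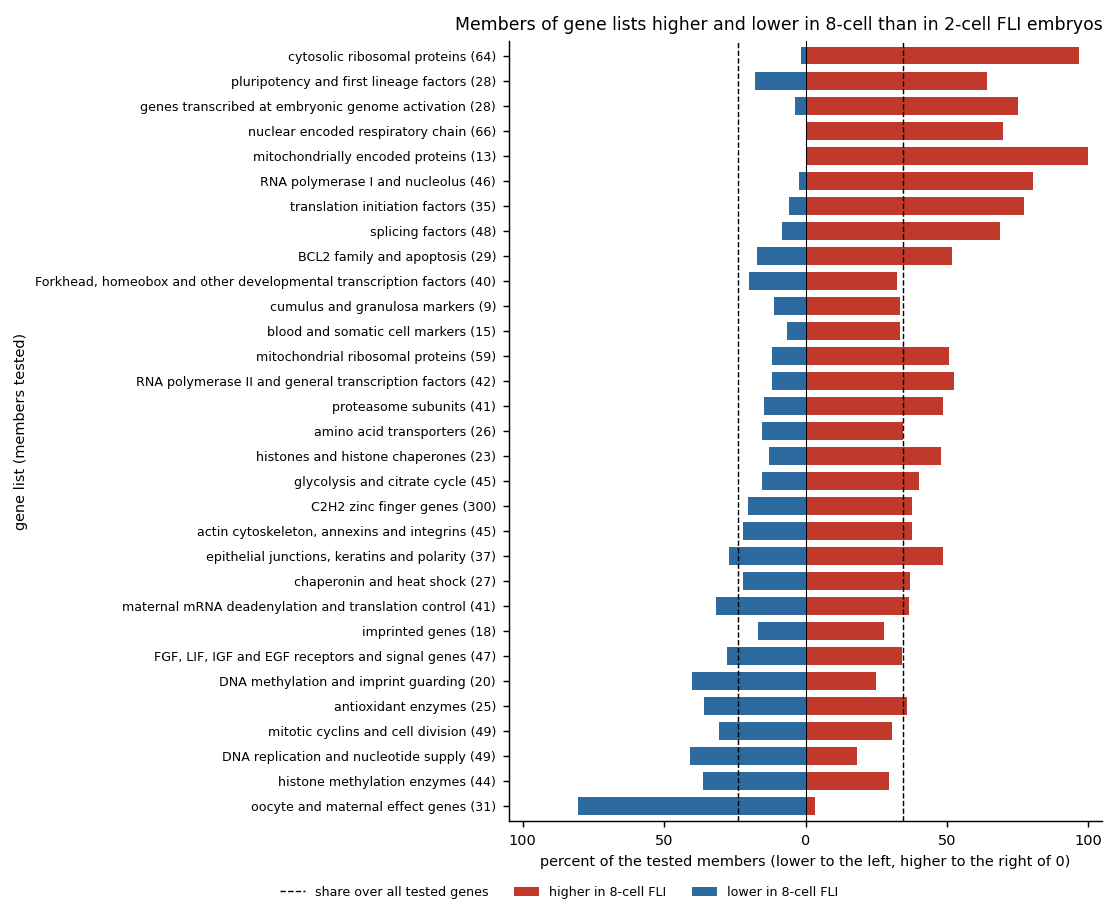
For each of 31 gene lists, the bars give the percent of tested members called higher (red, right) and lower (blue, left) in 8-cell FLI than in 2-cell FLI embryos, ordered by the median log2 fold change with the highest at the top. Dashed lines mark the shares over all tested genes, 34.6% and 24.0%. Cytosolic ribosomal proteins stand at the top with 62 of 64 members higher, and oocyte and maternal effect genes at the bottom with 25 of 31 lower.

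Genes that control maternal messengers changed in both directions. Of 41 tested genes of deadenylation and translation control, 15 rose and 13 fell (median -0.03), near the shares over all genes. BTG1, which recruits the deadenylase, had 80.0, 57.9 and 64.1 CPM in 8-cell and 3.15, 1.18 and 2.82 CPM in 2-cell embryos (4.86 ± 0.32, adjusted p = 8.4e-10). CNOT9, a subunit of the deadenylase complex, rose by 2.68 ± 0.23 and YTHDF3, a reader of methylated RNA, by 2.01 ± 0.19. Members that fell included PATL2 (-2.51), CPEB1 (-2.03), EIF4E1B (-1.77) and PABPC1L (-1.64), which were singled out after their values were seen. BTG4, the oocyte counterpart of BTG1, had 80.0, 358 and 28 CPM in 8-cell and 588, 478 and 587 CPM in 2-cell embryos (-1.82 ± 0.65, adjusted p = 0.024).

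Mitochondrial transcripts made up more of the 8-cell libraries. The 13 mitochondrially encoded genes took 10.5%, 4.74% and 12.8% of counts in 8-cell embryos, against 2.71%, 2.24% and 3.14% in 2-cell embryos. The means were 9.32% ± 4.12 in 8-cell and 2.70% ± 0.446 in 2-cell embryos (SD, n = 3 each), and the two-sided exact permutation test gave p = 0.10, the smallest p that 3 against 3 libraries allow. All 13 genes rose, by 1.31 to 2.21 on the log2 scale, with the largest value for ND4L and the smallest for ND6. COX2, a subunit of complex IV, had 14153, 6242 and 12659 CPM in 8-cell and 2522, 2495 and 2950 CPM in 2-cell embryos (2.05 ± 0.28, adjusted p = 6.8e-06). COX3 (2.00 ± 0.26) and ATP6 of the ATP synthase (1.89 ± 0.28) rose alike. ND4L, ATP6 and COX3 each overlap a neighbouring mitochondrial gene, so that reads of the overlap cannot be assigned to 1 gene.

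Nuclear genes of the respiratory chain rose in 46 of 66 tested members (69.7%, beside 34.6% over all tested genes) and none fell (median 1.81). NDUFV1, a subunit of complex I, had 70.0, 24.6 and 58.2 CPM in 8-cell and 0.573, 0.336 and 0.605 CPM in 2-cell embryos (6.62 ± 0.55, adjusted p = 1.3e-08). UQCRC2 of complex III (6.21 ± 0.61), COX4I1 (4.86 ± 0.44) and COX7A2 (4.58 ± 0.35) of complex IV rose too. The whole list took 0.669%, 0.203% and 0.689% of counts in 8-cell and 0.162%, 0.157% and 0.163% in 2-cell embryos, so that pool 2 lay close to the 2-cell level. Mitochondrial ribosomal proteins were less uniform, with 30 of 59 higher and 7 lower (median 0.79). These are 50.8% and 11.9%, beside 34.6% and 24.0% over all tested genes. MRPL28 had 102, 58.7 and 94.7 CPM in 8-cell and 6.59, 6.55 and 6.66 CPM in 2-cell embryos (3.68 ± 0.23). MRPS14 went the other way, with 57.0, 71.1 and 24.3 CPM in 8-cell and 346, 367 and 338 CPM in 2-cell embryos (-2.77 ± 0.29).

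Chromatin genes changed in both directions. Of 23 tested histones and histone chaperones 11 rose and 3 fell (median 0.54), and 5 fell without 8-cell pool 2. H2AZ1, a replacement histone, had 227, 253 and 187 CPM in 8-cell and 6.87, 6.05 and 8.47 CPM in 2-cell embryos (4.96 ± 0.28, adjusted p = 1.0e-10), and H3-3A rose by 2.41 ± 0.19. SLBP, which binds the stem-loop of replication-dependent histone messengers, fell by 2.24. Of 44 histone methylation enzymes 13 rose and 16 fell (median -0.40), and 25 fell without 8-cell pool 2. The shares with all pools were 29.5% and 36.4%, beside 34.6% and 24.0% over all tested genes. EED, a subunit of Polycomb repressive complex 2, had 130, 81.1 and 109 CPM in 8-cell and 0, 1.85 and 0 CPM in 2-cell embryos (7.13 ± 0.65). SETD2, the methyltransferase of histone H3 lysine 36, had 270, 395 and 192 CPM in 8-cell and 16, 16.1 and 18.8 CPM in 2-cell embryos (4.07 ± 0.27), and the demethylase gene KDM4A rose by 2.91 ± 0.25. These 3 enzymes were above the 2-cell level in each 8-cell pool.

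In the list of DNA methylation and imprint guarding 5 of 20 tested members rose and 8 fell (median -0.26). These are 25% and 40%, beside 34.6% and 24.0% over all tested genes. The list took 0.588%, 1.29% and 0.246% of counts in 8-cell and 3.45%, 3.36% and 3.10% in 2-cell embryos. Opposite to DNMT1, TDG, the thymine DNA glycosylase of active demethylation, had 57.9, 86.1 and 54.6 CPM in 8-cell and 0.286, 0 and 0 CPM in 2-cell embryos, a ratio of 996 with a 95% counting interval of 178 to 39406. ZFP57, a zinc finger protein that guards imprints, had 128, 54.2 and 115 CPM in 8-cell and 1.43, 0.336 and 0 CPM in 2-cell embryos (7.55 ± 0.63, adjusted p = 1.4e-08). Its partner TRIM28 rose by 1.82 ± 0.23. Among further members, singled out after their values were seen, the methyltransferase gene DNMT3B (-2.16) and UHRF1 (-2.17), which guides DNMT1, fell.

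Imprinted genes are read from 1 parental copy, and parthenogenetic embryos hold maternal copies only. Of 18 tested members 5 rose and 3 fell (median -0.03). These are 27.8% and 16.7%, both below the 34.6% and 24.0% over all tested genes. Of 19 then tested, 9 rose and 9 fell without 8-cell pool 2. The median was -1.37 without 8-cell pool 2, 0.46 without 8-cell pool 1 and 0.22 to 0.44 without any 1 of the other 4 libraries, so that its direction turned with the libraries used. RTL1, paternally expressed in mouse, had 2.70, 2.56 and 4.42 CPM in 8-cell and no count in 2-cell embryos, at least 15.5-fold higher. PHLDA2, maternally expressed in mouse, had 5.40, 42.9 and 4.42 CPM in 8-cell and 1.72, 1.34 and 0.605 CPM in 2-cell embryos (3.88 ± 0.87, adjusted p = 0.0011), and pool 2 alone was high. PLAGL1, paternally expressed in mouse, fell by 2.26, with 21.1, 39.8 and 7 CPM in 8-cell and 114, 119 and 98.3 CPM in 2-cell embryos. The stages did not overlap in these genes.

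Of 49 tested members of the list of cell division 15 rose and 15 fell, 30.6% each beside 34.6% and 24.0% over all tested genes (median -0.29), and 25 fell without 8-cell pool 2. CKS2 had 294, 448 and 240 CPM in 8-cell and 48.4, 63.5 and 61.5 CPM in 2-cell embryos (2.50 ± 0.22, adjusted p = 2.2e-08). CKS1B, its close relative, had 93.8, 103 and 61.6 CPM in 8-cell and 322, 330 and 331 CPM in 2-cell embryos (-1.92 ± 0.20, adjusted p = 2.0e-07). Both encode subunits of cyclin-dependent kinases, and neither overlapped between the stages. PRC1, a protein of the spindle midzone, fell by 1.94, and WEE1, the kinase that restrains entry into mitosis, rose by 3.95 ± 0.56.

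DNA replication genes leaned downwards. Of 49 tested members 9 rose and 20 fell (median -0.40), and 5 rose without 8-cell pool 1. With all pools the shares were 18.4% and 40.8%, beside 34.6% and 24.0% over all tested genes. GINS2, a subunit of the replicative helicase, had 53.5, 82.3 and 46.4 CPM in 8-cell and 369, 331 and 349 CPM in 2-cell embryos (-2.52 ± 0.22, adjusted p = 2.7e-08). CDC6, which loads the helicase, fell by 1.54. LIG1, a DNA ligase, rose by 2.28 ± 0.25 and POLD1, a polymerase subunit, by 1.92 ± 0.28.

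The growth factors of the medium act through receptors that were themselves measured. In the list of FGF, LIF, IGF and EGF receptors and signal genes, 16 of 47 tested members rose and 13 fell (34.0% and 27.7%, near the shares over all genes, median -0.15), and 21 fell without 8-cell pool 2. IGF1R had 54.3, 86.7 and 32.1 CPM in 8-cell and 144, 121 and 113 CPM in 2-cell embryos (-1.12 ± 0.29, adjusted p = 0.0031). IL6ST, the shared signal receptor of the LIF family, had 33.1, 26.4 and 43.9 CPM in 8-cell and 16.9, 11.6 and 13.7 CPM in 2-cell embryos (1.29 ± 0.34, adjusted p = 0.0039). The stages did not overlap in either gene. EGFR had 11.8, 0.788 and 15.9 CPM in 8-cell and 1.72, 1.18 and 0 CPM in 2-cell embryos (3.29 ± 1.1, adjusted p = 0.018). Pool 2 lay within the 2-cell range, and the call did not pass without 2-cell pool 3 (adjusted p = 0.069), 8-cell pool 1 (0.057) or 8-cell pool 3 (0.075). With limma voom EGFR did not pass either (adjusted p = 0.086).

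IGF2R, the receptor that clears IGF2, had 203, 63.2 and 147 CPM in 8-cell and 77.0, 67.9 and 64.2 CPM in 2-cell embryos (0.98 ± 0.33, adjusted p = 0.017). Pool 2 lay at the 2-cell level, and the call was lost when any library but 8-cell pool 2 was left out, with an adjusted p of up to 0.24. It was also lost with limma voom (adjusted p = 0.051) and with only the groups compared in the fit (0.058). FGFR1 (-1.42 ± 0.71, adjusted p = 0.094), FGFR2 (-0.25 ± 0.35, adjusted p = 0.54) and LIFR (-0.68 ± 0.36, adjusted p = 0.11) were not called. LIFR had 26.5, 71.9 and 19.5 CPM in 8-cell and 65.3, 62.3 and 63.8 CPM in 2-cell embryos, and was called lower without pool 2 (-1.65, adjusted p = 5.6e-05). FGFR2 was called lower without pool 2 as well (-0.85, adjusted p = 0.044). Of the members with the smallest p, the feedback inhibitors SOCS2 (3.74 ± 0.32) and SPRY4 (4.18 ± 0.45), the adaptor gene FRS2 (2.77 ± 0.25) and the EGF receptor family member ERBB3 (4.99 ± 0.56) were above their 2-cell level in each 8-cell pool.

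Of 45 tested genes of glycolysis and the citrate cycle 18 rose and 7 fell, 40% and 15.6% beside 34.6% and 24.0% over all tested genes (median 0.50, and 0.07 without 8-cell pool 1), and 12 fell without 8-cell pool 2. PGAM1, phosphoglycerate mutase, had 151, 142 and 142 CPM in 8-cell and 0.286, 0 and 0.202 CPM in 2-cell embryos, a ratio of 1045 with a 95% counting interval of 289 to 8636. TKT, transketolase, rose by 4.74 ± 0.34, DLD, the shared dehydrogenase subunit of the pyruvate complex, by 4.05 ± 0.41 and FH, fumarase, by 2.57 ± 0.22. PGAM1 was the most even of these among the 8-cell pools. Of 26 amino acid transporters 9 rose and 4 fell, 34.6% and 15.4% (median 0.56), with 5 higher without 2-cell pool 1 or 8-cell pool 1. SLC6A8 of this list, a creatine transporter gene, had 1183, 230 and 945 CPM in 8-cell and 0.573, 2.35 and 0.807 CPM in 2-cell embryos (9.16 ± 0.63, adjusted p = 1.1e-09), and its annotated span overlaps 5 other genes. SLC1A5, a glutamine transporter, fell by 2.01.

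Antioxidant enzymes divided evenly, with 9 of 25 tested members higher and 9 lower (median -0.27). Each count is 36%, beside 34.6% higher and 24.0% lower over all tested genes. PRDX4, the peroxiredoxin of the endoplasmic reticulum, had 91.3, 59.3 and 102 CPM in 8-cell and 0.859, 0.672 and 0.807 CPM in 2-cell embryos (6.72 ± 0.33, adjusted p = 3.5e-11). PRDX6 rose by 4.89 ± 0.34. The cytosolic enzymes PRDX1 and SOD1 fell. SOD1 had 23.8, 37.4 and 11.4 CPM in 8-cell and 109, 111 and 111 CPM in 2-cell embryos (-2.16 ± 0.34, adjusted p = 3.9e-05). The peroxiredoxin family was therefore not uniform in direction.

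Proteasome subunits rose in 20 of 41 tested members and fell in 6 (median 0.59). These are 48.8% and 14.6%, beside 34.6% and 24.0% over all tested genes. The members with the smallest p included PSMD7 (2.85 ± 0.24), PSMB7 (3.54 ± 0.31) and PSMD13 (2.42 ± 0.22). Of 27 chaperones 10 rose and 6 fell (37.0% and 22.2%, near the shares over all genes, median 0.19). HSPA8, the constitutive heat shock protein, had 2314, 1516 and 2287 CPM in 8-cell and 179, 140 and 155 CPM in 2-cell embryos (3.69 ± 0.24, adjusted p = 6.5e-10). HSPD1, the mitochondrial chaperonin, had 1124, 194 and 945 CPM in 8-cell and 47.8, 46.5 and 45.0 CPM in 2-cell embryos (4.02 ± 0.47), and CCT4 of the cytosolic chaperonin rose by 3.8 ± 0.49. Each of these was lowest in pool 2 among the 8-cell pools and still above all 2-cell pools.

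Cell contact and apoptosis genes included members that were close to 0 in 2-cell embryos. Of 37 tested genes of junctions, keratins and polarity 18 rose and 10 fell (median 0.37). These are 48.6% and 27.0%, beside 34.6% and 24.0% over all tested genes. The desmosome genes PKP2 (7.08 ± 0.53), JUP (6.04 ± 0.56) and DSC2 (7.82 ± 0.95) rose, and DSC2 had 103, 14.4 and 94.0 CPM in 8-cell and 0.573, 0.168 and 0.202 CPM in 2-cell embryos. Of 45 genes of actin, annexins and integrins 17 rose and 10 fell (37.8% and 22.2%, near the shares over all genes, median 0.42), and TMSB10, which binds actin monomers, had 314, 294 and 215 CPM in 8-cell and 9.17, 6.72 and 6.66 CPM in 2-cell embryos (5.2 ± 0.32). Of 29 genes of the BCL2 family and apoptosis 15 rose and 5 fell (51.7% and 17.2%, median 1.16), and 3 fell without 2-cell pool 2. MCL1, which protects against apoptosis, had 90.8, 85.3 and 84.4 CPM in 8-cell and 3.72, 3.86 and 2.82 CPM in 2-cell embryos (4.63 ± 0.29). The promoters of apoptosis BAD (ratio 754, interval 258 to 3660), BAK1 (5.78 ± 0.40) and DIABLO (4.82 ± 0.34) rose as well, whereas BCL2L1, which protects, fell (-2.11) and was singled out after its values were seen.

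Developmental transcription factors rose in 13 of 40 tested members and fell in 8 (32.5% and 20%, near the shares over all genes). Their median was 1.02, against 0.44 without 8-cell pool 3 and -0.13 with only the groups compared in the fit. PITX1, a paired-like homeobox gene, had 26.8, 39.6 and 15.9 CPM in 8-cell and 1.15, 0.168 and 1.21 CPM in 2-cell embryos (5.09 ± 0.57, adjusted p = 6.4e-07). PBX3 (1.96 ± 0.21) and FOXH1 (4.88 ± 0.73) rose too. Of 300 tested C2H2 zinc finger genes 113 rose and 61 fell (median 0.47), close to the shares over all genes. ZNF622 had 195, 321 and 173 CPM in 8-cell and 0.573, 0.672 and 0.807 CPM in 2-cell embryos (8.32 ± 0.45, adjusted p = 8.3e-11), while ZNF384 rose by 5.44 ± 0.35, ZBTB43 by 4.03 ± 0.26 and ZBTB11 by 3.45 ± 0.23.

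Markers of cells outside the embryo were listed as well. Of 30 listed cumulus and granulosa markers 9 were tested. Of these, 3 rose (33.3%, near the share over all genes) and 1 fell, a smaller share than the 24.0% over all tested genes. Of 12 then tested, 6 rose without 8-cell pool 2 and 5 without 8-cell pool 1. AREG, an EGF family ligand, had 12, 12.2 and 5.53 CPM in 8-cell and no count in 2-cell embryos, at least 47.6-fold higher. GREM1, a BMP antagonist of cumulus cells, had 7.37, 14.2 and 8.48 CPM in 8-cell and 45.3, 38.0 and 39.8 CPM in 2-cell embryos (-2.01 ± 0.43, adjusted p = 0.00074). Of 29 blood and somatic markers 15 were tested, of which 5 rose (33.3%, near the share over all genes) and 1 fell (6.67%). MYH11, a smooth muscle myosin, was the one that fell (-1.59). Only 2 rose without 2-cell pool 2, 2-cell pool 3 or 8-cell pool 3, and 3 fell without 8-cell pool 2. MYH11 had 53.5, 136 and 22.1 CPM in 8-cell and 252, 218 and 173 CPM in 2-cell embryos. VIM, vimentin, had 6.87, 30.9 and 21.4 CPM in 8-cell and 0.286, 0 and 0 CPM in 2-cell embryos, a ratio of 295 with a 95% counting interval of 52.4 to 11697. VWF, an endothelial marker, had 5.40, 1.18 and 17.7 CPM in 8-cell and 1.15, 0.504 and 0.404 CPM in 2-cell embryos (3.54 ± 1.1, adjusted p = 0.013). It did not pass without 8-cell pool 3 (adjusted p = 0.12), 2-cell pool 2 (0.054) or 2-cell pool 3 (0.055), or with limma voom (0.062).

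Gene structure and position were described apart from function, with no test. Genes of the shortest quartile by genomic span (180 to 10613 bases) rose in 44.1% and fell in 16% of cases, and those of the longest quartile (72741 to 2361240 bases) rose in 26.3% and fell in 28.1%. The median log2 fold change was 1.14 in the shortest and -0.16 in the longest quartile. By exonic length the shares that rose lay between 32.7% and 36.8% in all quartiles. Among chromosomes, 41.1% of 484 tested X-linked genes rose and 19.4% fell, against 34.3% and 24.2% of 12677 autosomal genes. The lowest share of genes that rose among autosomes was 23.8% of 282 genes on chromosome 18, and the highest was 39.3% of 535 genes on chromosome 15.

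More genes were detected at the 8-cell stage. At an equal depth of 2167674 counts, the expected number of detected genes was 15516, 14696 and 18595 in 8-cell embryos, against 13549, 13607 and 13760 in 2-cell embryos. The means were 16269 ± 2056 in 8-cell and 13639 ± 109 in 2-cell embryos (SD, n = 3 each, two-sided exact permutation p = 0.10). The difference of 2630 genes was 1467 without 8-cell pool 3. The 100 most abundant genes took 22.1% ± 3.10 of counts in 8-cell and 19.3% ± 0.298 in 2-cell embryos (SD, n = 3 each, two-sided exact permutation p = 0.40). With mitochondrially encoded genes left out this direction turned, to 15.1% ± 0.486 in 8-cell and 18.1% ± 0.374 in 2-cell embryos (SD, n = 3 each, two-sided exact permutation p = 0.10).

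The same change in DMEM embryos was used to ask whether it depended on the medium. In DMEM embryos 4737 genes (35.9%) were higher and 3830 (29.0%) lower at the 8-cell stage, and the FLI and DMEM comparisons share no library. Of the genes that rose in FLI, 4049 also rose in DMEM, which is 88.6% of the FLI and 85.5% of the DMEM genes. Of those that fell in FLI, 2839 also fell in DMEM, 89.8% of the FLI and 74.1% of the DMEM genes. No gene rose in FLI and fell in DMEM, and 1 did the reverse. Across 13187 genes, which are not independent replicates, the log2 fold changes of the media correlated with Pearson's r = 0.92 and had the same sign in 92.2%.

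**Figure D5:**
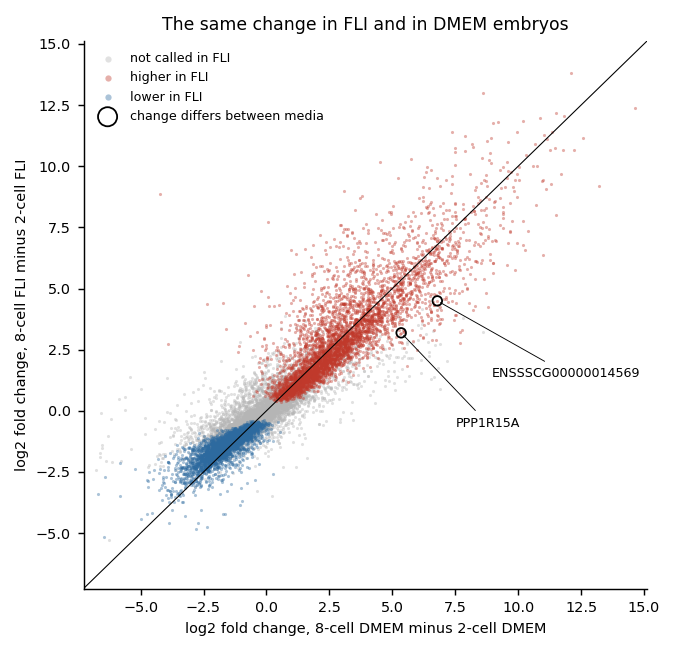
The log2 fold change between the 8-cell and 2-cell stages in FLI (vertical axis) is plotted against that in DMEM (horizontal axis) for 13187 genes, coloured by the call in FLI, with the line of equal change. The circled genes, PPP1R15A and ENSSSCG00000014569, are those whose change differed between the media by the interaction test.

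The difference of the changes was tested as an interaction. It was lower in FLI in 2 genes (0.0152%) and higher in none by edgeR, while at an unadjusted p under 0.05 410 genes (3.11%) were lower and 259 (1.96%) higher. DESeq2 called 7 lower and 1 higher, and limma voom none. PPP1R15A (chromosome 6, 54172050-54175463), a phosphatase subunit of the stress response, had 114, 104 and 103 CPM in 8-cell and 14.6, 11.6 and 9.08 CPM in 2-cell FLI embryos. In DMEM it had 192, 277 and 239 CPM in 8-cell and 5.63, 5.76 and 5.85 CPM in 2-cell embryos. It rose in both media, by 3.19 ± 0.23 in FLI and 5.35 ± 0.25 in DMEM, a difference of -2.16 ± 0.31 (adjusted p = 0.018), and the media did not overlap at either stage. ENSSSCG00000014569 (chromosome 9, 707693-711219), which overlaps RPL27A of RefSeq by 2689 bases, rose by 4.5 ± 0.27 in FLI and 6.79 ± 0.31 in DMEM. The difference was -2.29 ± 0.36 (adjusted p = 0.038).

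The position of the changes relative to the 4-cell stage was read from a direct comparison of 8-cell with 4-cell FLI embryos, which uses the same 8-cell libraries. It called 106 genes higher (0.804%) and 296 lower (2.24%) at the 8-cell stage. These counts were 0 and 0 without 8-cell pool 1 or 4-cell pool 2, 622 and 1596 without 8-cell pool 2, and 9 and 17 or 1 and 19 without 4-cell pool 1 or pool 3. Without 8-cell pool 3 they were 133 and 95. RAB3IL1 was lower at the 8-cell stage than its 1049, 996 and 980 CPM at the 4-cell stage (-0.94, adjusted p = 0.022). KLF4 (-0.94, adjusted p = 0.022) and SRSF2 (-1.15, adjusted p = 0.0056) were lower too. SULT1E1 had 503, 376 and 216 CPM at the 4-cell stage and did not pass between the 8-cell and 4-cell stages (0.18 ± 0.49, adjusted p = 0.88). RGS2 had 8.86, 14 and 28.1 CPM at the 4-cell stage and did not pass either (0.03, adjusted p = 0.98).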

How the data were processed

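Total RNA of 18 pools of 20 porcine embryos was extracted with RNAqueous Micro, and libraries were made with the SMARTer Stranded Total RNA kit (Pico) and sequenced on an Illumina NovaSeq instrument. The authors aligned reads to Sscrofa 11.1 with bowtie2 and computed expression values with the Illumina Dragen software. They tested differential expression with DESeq2, without versions in the sources used here. They deposited whole-number counts per gene, which were used for all tests. The deposited TPM values served to compare levels between genes. Mapped reads per library and exonic lengths are not measured values but were derived from the deposited counts and RPKM values. The columns labelled CPM were not used. Genes shared by copies or overlapping genes may share counts. Depth was 2167674 to 5683102 counts in the 6 libraries compared, and counting intervals (95%, exact) and floors (3 counts) cover counting error only.

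Of 20983 genes, 15498 had a symbol in the table, 192 were named from the RefSeq reference by identifier and 5293 kept an identifier only. Genes with low counts were removed (filterByExpr), leaving 13187. Counts were scaled by TMM and tested with edgeR 4.0.16 (quasi-likelihood, all 6 groups in 1 fit, R 4.3.3) with Benjamini-Hochberg adjustment at 0.05. The SE of an edgeR log2 fold change is its absolute value divided by the square root of the F statistic. It is an approximation, least reliable for genes with no or few counts in a group. limma 3.58.1 (voom) and DESeq2 1.42.0 were alternatives, as were other scalings, filters, fits and sets of libraries. The fit was tested on simulated data. Values of 3 against 3 libraries were compared by exact permutation tests (scipy 1.17.1).

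Genes were named by rule: the 10 of largest change in each direction (called, not overlapping, mean of at least 50 CPM where higher), up to 4 members of each of 31 lists by p, the 5 of highest TPM in each group, genes called by the interaction, and 7 growth factor receptors. Not every gene so chosen is printed. Members and lists were chosen with earlier results of these data known, and further members named in the text were chosen after their values were seen. Some results are not reported here.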

Additional observations from a re-analysis of the deposited data

Results flagged for a closer look

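In 2 genes the change between the 2-cell and 8-cell stages differed between FLI and DMEM embryos by the interaction test of edgeR. For PPP1R15A the difference in log2 fold change, FLI minus DMEM, was -2.16 ± 0.31 (SE, adjusted p = 0.018). It lay between -2.33 and -1.98 over 25 alternatives, with adjusted p-values of 2.1e-05 to 0.32, and did not pass the threshold in 11 of them. For ENSSSCG00000014569 the difference was -2.29 ± 0.36 (SE, adjusted p = 0.038). It lay between -2.58 and -1.76, with adjusted p-values of 0.000665 to 0.95, and did not pass in 19 of 25 alternatives.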

How the results depend on the processing

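The count of genes that rose between the stages in FLI lay between 3332 and 5490, and of genes that fell between 2098 and 4388, over all alternatives. With only the groups compared in the fit, 2098 genes fell. Leaving out 1 library gave 3901 to 4906 genes higher and 2611 to 4388 lower. Of 157 named genes 153 were called, of which 127 were tested and passed in all 19 alternatives, 8 lost the call in at least 1, the others were not tested in at least 1, and 0 were reversed. The median of 6 of the 31 lists changed sign with 1 library left out or only the groups compared. Other settings turned further medians. With DESeq2 the list of FGF, LIF, IGF and EGF receptors and signal genes had 0.10 and antioxidant enzymes had 0.08. With a filter on detection in 2 of 3 libraries, junctions, keratins and polarity had -0.17. The difference between media was higher in 1 gene with DESeq2. It was lower in 7 genes with DESeq2, in 1 with DESeq2 size factors, the detection filter, library size only or no mitochondrial genes, in 0 with limma voom, only the groups compared, upper quartile scaling or 8-cell FLI pools 2 and 3 left out, and in 0 to 4 with 1 library left out. Between the 8-cell and 4-cell stages, DESeq2 gave 443 higher and 660 lower, the detection filter 24 and 116, library size only 163 and 125, no filter 51 and 87, only the groups compared 0 and 0, upper quartile scaling 205 and 113, and 8-cell FLI pools 2 and 3 with 8-cell DMEM pool 1 left out 515 and 732. The settings that leave out 8-cell FLI pools 2 and 3 keep 1 library in that arm, which is assumed to vary like the other groups. limma voom gave 602 lower, 8-cell FLI pools 2 and 3 left out 168 higher, and 1 library left out 0 to 622 higher and 0 to 1596 lower. The cause of these differences was not tested. The share of the 100 most abundant genes differed by -2.96 percentage points without mitochondrial genes. Correlations of deviations were -0.014, 0.0076 and 0.045 for 8-cell and 2-cell pools of the same number. They lay between -0.039 and 0.027 for pools of different numbers. With 3 pools per group these values cannot settle whether pools of the same number were paired. With the replicate block 4385 genes rose and 3103 fell, 31 and 149 differed between the 8-cell and 4-cell stages, and BMP15 had an adjusted p = 0.052. Without mitochondrial genes, the list of those genes has no value. The planned motif search in promoters was not run.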
